A study of Mus musculus with 83 samples.

Results

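The genes described here encode enzymes that burn long- and medium-chain fatty acids in mitochondria. They were chosen by name as a set of 10: Acsl1, Cpt1a, Cpt1b, Cpt2, Acadvl, Acadl, Acadm, Hadha, Hadhb and Acaa2. All 10 were listed among the 11144 genes of the culture tables and among the 22459 genes matched in the tissue table. RNA was sequenced from interscapular brown adipose tissue of C57BL/6J mice aged 16 weeks, and from cultured brown preadipocytes at 4 times. The culture was a line isolated from newborn interscapular brown fat of the C57BL/6J background, carrying Pparg-flox/flox alleles, and was made immortal by a retrovirus expressing SV40 large T. All 4 culture libraries share these alleles and the large T, and no Cre is named for them. The cells were proliferating at day -3 and confluent at day 0, when insulin, T3, IBMX, dexamethasone and indomethacin were added. They are labelled immature adipocytes at day 2 and mature adipocytes at day 7, after refeeding with insulin and T3. The number of animals behind the tissue library is not given in the labels.

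Each time and the tissue had 1 library, so the differences below cannot be set against replicates and carry no p-value. Genes are called higher or lower here where log2(value + 1) differed by at least 1, which is 2-fold on that scale, and the larger value was at least 1. The number of genes past that rule among all genes stands beside each count of members. Culture values are FPKM and tissue values RPKM, both of which are scaled for transcript length. Culture depth is unknown. For the tissue, a single read over 1 kb of RNA corresponded to about 0.187 RPKM, so 3 reads over 1 kb correspond to 0.560 RPKM. The labelled cell types were checked against markers. The 10 adipocyte markers summed to 81.1, 152, 7390 and 7724 FPKM at days -3, 0, 2 and 7. Fabp4 and Lpl, which made up most of each sum, had lower values at day 7 than at day 2. The median of the 10 was 0.672, 0.746, 141 and 240 FPKM at days -3, 0, 2 and 7. The 5 brown fat markers with culture values summed to 0.341, 1.99, 2.38 and 149 FPKM at those days, and at day 7 Cox7a1 was at 132, Cidea at 8.81 and Ucp1 at 1.22 FPKM. The 7 brown fat markers summed to 3510 RPKM in the tissue. The 7 preadipocyte markers with culture values summed to 87.9, 206, 119 and 49.8 FPKM at days -3, 0, 2 and 7.

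A fatty acid enters the pathway as an acyl-CoA, made by a long-chain acyl-CoA synthetase such as ACSL1. CPT1 at the outer mitochondrial membrane moves the acyl group onto carnitine, a translocase carries it across the inner membrane, and CPT2 returns it to CoA. Malonyl-CoA, the building block of fatty acid synthesis, inhibits CPT1. Inside the matrix each turn of the spiral uses an acyl-CoA dehydrogenase, a hydratase, a hydroxyacyl-CoA dehydrogenase and a thiolase, and releases acetyl-CoA. In brown fat this oxidation feeds the respiratory chain that UCP1 uncouples to make heat.

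The enzymes as a set were higher later in differentiation, apart from Cpt1a. Between day 7 and day -3, 9 of the 10 were at least 2-fold higher and 0 lower, where 20.3% of all compared genes were higher and 14.7% lower. The median difference in log2(FPKM + 1) of the members was 2.36, against 0.07 for all genes. The summed level of the 10 was 183, 310, 711 and 955 FPKM at days -3, 0, 2 and 7. In these bulk libraries, a larger share of cells expressing a gene and more RNA per cell cannot be told apart. Of the 10 members, 7, namely Cpt2, Acadvl, Acadl, Acadm, Hadha, Hadhb and Acaa2, had a higher value at each later day. Among all 11144 genes 13.5% did so. All 7 were also at least 2-fold higher at day 7 than at day -3, a pattern shared by 9.52% of the 10828 genes compared. The other 3, Acsl1, Cpt1a and Cpt1b, are enzymes of entry into the pathway, and each had a different time course.

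**Figure D1:**
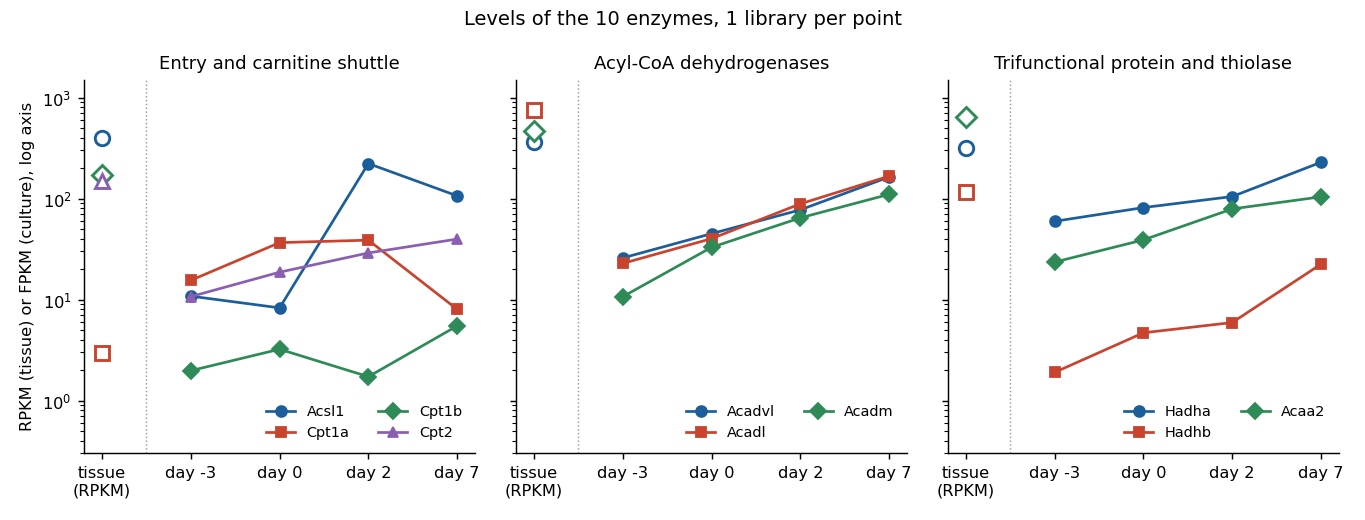
Levels of the 10 enzymes in brown adipose tissue (open symbols, RPKM) and in culture at days -3, 0, 2 and 7 (filled symbols joined by lines, FPKM), on a log axis, with 1 library per point. The dehydrogenases and the later matrix enzymes are higher at each later day, while Acsl1 peaks at day 2 with 222 FPKM and Cpt1a is lowest at day 7 with 8.01 FPKM.

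Acsl1 encodes the main acyl-CoA synthetase of adipocytes, which serves both lipid storage and oxidation. It was at 10.8, 8.28, 222 and 106 FPKM at days -3, 0, 2 and 7. The 2 preadipocyte libraries were therefore low and both adipocyte libraries high, with day 2 the highest. The log2 difference was 4.59 between day 2 and day 0, the largest of any member at any step, and -1.05 between day 7 and day 2. Acsl1 made up 31.2% of the members' summed FPKM at day 2 and 11.1% at day 7.

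Cpt1a encodes the CPT1 isoform of liver and many other tissues, and Cpt1b the isoform of muscle and brown fat. Cpt1a was at 15.5, 36.6, 38.7 and 8.01 FPKM at days -3, 0, 2 and 7. Its highest values lay at confluence and at day 2, and the day 7 library was the lowest of the 4. The log2 difference was 1.19 between day 0 and day -3, 0.08 between day 2 and day 0 and -2.14 between day 7 and day 2. Cpt1a was the single member whose value at day 7 lay below that at day -3, by -0.87 on the log2 scale, which is inside the 2-fold rule.

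Cpt1b was at 1.98, 3.22, 1.72 and 5.48 FPKM at days -3, 0, 2 and 7. All 4 values were low, with day 2 the lowest and day 7 the highest. The log2 difference was 1.25 between day 7 and day 2 and 1.12 between day 7 and day -3. With a pseudocount of 5 in place of 1 these were 0.64 and 0.59, no longer past the rule.

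The balance of the isoforms can be read within each library, where it does not depend on how that library was scaled. The transcript annotation behind the culture FPKM is not known here, and whether it affects the balance was not tested. Cpt1b made up 11.3%, 8.09%, 4.26% and 40.6% of the 2 transcripts' summed FPKM at days -3, 0, 2 and 7. Cpt1a thus exceeded Cpt1b by 22.5-fold at day 2 and by 1.46-fold at day 7. The sum of both was 17.5, 39.8, 40.5 and 13.5 FPKM, lowest in the mature adipocytes. Unlike the share, this sum depends on scaling, and its values at day 7 and day -3 lay less than 2-fold apart.

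Cpt2 encodes the carnitine palmitoyltransferase of the inner membrane. It was at 10.7, 18.7, 28.9 and 39.7 FPKM at days -3, 0, 2 and 7, a steady series in which no single step reached 2-fold and the whole interval differed by 1.80 in log2. The ratio of Cpt2 to the sum of Cpt1a and Cpt1b was 0.612, 0.469, 0.716 and 2.94 at those days. Slc25a20, the carnitine-acylcarnitine translocase between them, was at 10.8, 18.2, 17.4 and 16.2 FPKM and differed by less than 2-fold at every step.

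**Figure D2:**
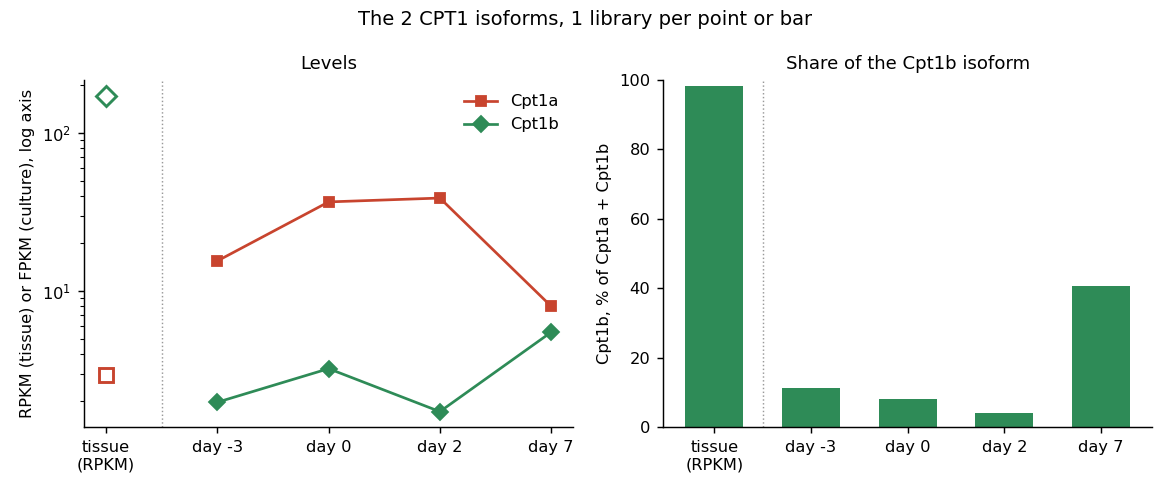
Levels of Cpt1a and Cpt1b on a log axis (left; open symbols tissue in RPKM, filled symbols culture in FPKM) and Cpt1b as a percent of their sum (right), with 1 library per point or bar. The Cpt1b share is 98.3% in tissue, at most 11.3% at days -3, 0 and 2, and 40.6% at day 7.

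Promoter sequences of the entry enzymes are given because these genes parted from the rest of the pathway over time. They are RefSeq windows of build GRCm38.p6, which is another build than the mm9 of the submitters' processing notes. Windows of 8 of the 10 members were used. None was at hand for Cpt1b and none judged usable for Acaa2, so the motif counts below leave both out. Acaa2 was left out by hand, without a fixed criterion, while the shares over all windows were not filtered. Shown are the 250 bases before the transcription start, 5′ to 3′ on the gene's strand. Capitals mark matches, on either strand, to the nuclear receptor half-site AGGTCA, the GC box GGGCGG or the CCAAT box CCAAT. The Cpt1a window is chr19:3323051-3323300, plus strand. Acsl1 has 2 windows, chr8:46470787-46471036 and chr8:46490716-46490965, both plus strand, which belong to alternative starts.
Cpt1a: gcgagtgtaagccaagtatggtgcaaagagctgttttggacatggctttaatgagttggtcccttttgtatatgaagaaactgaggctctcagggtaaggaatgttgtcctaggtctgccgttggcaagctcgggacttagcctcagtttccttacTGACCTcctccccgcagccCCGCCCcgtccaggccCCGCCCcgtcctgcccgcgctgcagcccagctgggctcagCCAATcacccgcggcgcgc
Acsl1 first start: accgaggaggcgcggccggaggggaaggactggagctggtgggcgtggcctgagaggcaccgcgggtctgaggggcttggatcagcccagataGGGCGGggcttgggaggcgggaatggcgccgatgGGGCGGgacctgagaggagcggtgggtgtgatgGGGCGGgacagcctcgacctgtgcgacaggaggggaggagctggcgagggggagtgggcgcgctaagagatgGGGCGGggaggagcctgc
Acsl1 second start: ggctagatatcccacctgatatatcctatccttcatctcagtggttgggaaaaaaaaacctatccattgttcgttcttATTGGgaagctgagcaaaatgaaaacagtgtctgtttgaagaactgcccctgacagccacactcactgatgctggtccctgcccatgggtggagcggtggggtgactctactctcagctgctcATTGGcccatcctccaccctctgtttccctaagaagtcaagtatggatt

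The 2 Acsl1 windows differ in composition, since over 300 bases, which take in 50 bases after the start, their GC content was 74% and 50%, against a median of 52.7% for all windows. The first holds GC boxes and no CCAAT box, and the second holds CCAAT boxes and no GC box. Cpt1a holds 1 half-site, whose first base is 94 bases before the start. Among the 8 members with a window used here, 3 hold the half-site AGGTCA within the 300 bases (Cpt1a, Acadm and Acadvl), where 16.3% of all 32851 windows do. The GC box was found in 6 of the 8 and in 35.7% of all windows, and the CCAAT box in 2 of the 8 and in 37.4%. The windows of Hadha and Hadhb overlap, and the only GC box of Hadha is also counted for Hadhb. A member counts if any of its windows holds a motif, while the share is over single windows, so the 2 are not strictly alike. The ERR element TCAAGGTCA, which contains the half-site, the direct repeat of 2 half-sites AGGTCA spaced by 1 base, to which PPAR and RXR bind, the C/EBP palindrome TTGCGCAA and the TATA box TATAAA were found in 0 of the 8. They occur in 0.423%, 0.0396%, 0.183% and 13.6% of all windows in that order. The ETS core CCGGAAG was found in 1 of the 8, Cpt2, and in 8.86% of all windows.

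The acyl-CoA dehydrogenases take the first step of the spiral, each for a range of chain lengths. Acadvl, for very long chains, was at 25.8, 44.9, 77.3 and 164 FPKM at days -3, 0, 2 and 7. Acadl, for long chains, was at 22.8, 40.1, 88.6 and 167 FPKM. Acadm, for medium chains, was at 10.7, 32.9, 64.4 and 110 FPKM. All 3 were thus lowest in the proliferating cells and highest in the mature adipocytes. Their log2 differences between day 7 and day -3 were 2.62, 2.82 and 3.25, the last being the largest of the 10 members on this scale. As plain ratios of FPKM, Hadhb differed most, at 11.8-fold, and Acadm by 10.3-fold. Acadm was also the member with the largest difference between confluent and proliferating cells, at 1.54. The levels drew together at confluence: Acadvl exceeded Acadm by 2.42-fold at day -3 and by 1.37-fold, 1.20-fold and 1.49-fold at days 0, 2 and 7. Acads, for short chains and not a member, was at 16.2, 23.9, 23.2 and 42.4 FPKM, with a log2 difference of 1.34 over the whole interval.

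Hadha and Hadhb encode the alpha and beta subunits of the mitochondrial trifunctional protein, which carries out the later steps on long-chain substrates. Hadha was at 59.5, 81.4, 105 and 229 FPKM at days -3, 0, 2 and 7, the highest member in every culture library but day 2. Hadhb was at 1.90, 4.69, 5.93 and 22.4 FPKM. Both were lowest at day -3 and highest at day 7, though at very different levels. Their log2 differences between day 7 and day -3 were 1.92 and 3.01, and the step between day 7 and day 2 was the largest for each, at 1.12 and 1.76. Hadha exceeded Hadhb by 31.3-fold, 17.4-fold, 17.7-fold and 10.2-fold at days -3, 0, 2 and 7. The transcript annotation behind the culture FPKM is not known here, and whether it affects the low Hadhb values was not tested, so levels of Hadhb relative to Hadha carry that limit.

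The 2 genes lie head to head: in GRCm38.p6 their annotated starts are 273 bases apart on opposite strands of chromosome 5. The stretch between them is the upstream region of both, and 250 bases of it, those nearest to Hadhb, are printed for that reason. They are chr5:30155003-30155252, plus strand, and end at the base before the Hadhb start. Capitals mark the GC box.
Hadha-Hadhb interval: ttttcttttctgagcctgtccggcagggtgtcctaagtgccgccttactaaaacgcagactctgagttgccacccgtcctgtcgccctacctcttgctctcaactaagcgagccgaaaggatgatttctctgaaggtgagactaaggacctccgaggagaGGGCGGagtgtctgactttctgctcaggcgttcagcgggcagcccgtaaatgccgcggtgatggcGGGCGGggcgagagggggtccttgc

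Acaa2 encodes the matrix thiolase that ends a turn on medium-chain substrates. It was at 23.5, 39.0, 78.9 and 104 FPKM at days -3, 0, 2 and 7, again lowest in proliferating and highest in mature cells. Its log2 difference between day 2 and day 0 was just under 1.00 and so just inside the 2-fold rule, and between day 7 and day -3 it was 2.10.

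Step by step, most members differed by modest amounts and most were higher in the later library. Between day 0 and day -3, 2 of 10 were higher (Cpt1a and Acadm) and 0 lower, against 11.3% and 5.43% of all genes. The median difference was 0.76, against 0.06 for all genes. At the same step 3 of 7 preadipocyte markers were higher (Ly6a by 2.26, Cd34 by 1.97 and Pdgfra by 1.44) and 0 lower. Pdgfrb differed by 0.97, the median of the 7, while Thy1 (-0.67), Gata2 (-0.66) and Wnt10b (-0.07) had lower values. The part of these markers in the members' values was not tested. With the FPKM of every library brought to the same total, 4 members were higher, Hadhb and Acadl joining them, and 0 lower. At that total 19.4% of all genes were higher and 4.19% lower. The median of all genes was then 0.28, and the higher genes came to 82.3% of all genes past the rule, against 67.6% as deposited. Between day 2 and day 0, 2 of 10 were higher (Acsl1 and Acadl) and 0 lower, against 6.18% and 10.7% of all genes, with a median of 0.69 against -0.01. Between day 7 and day 2, 4 were higher (Acadvl, Cpt1b, Hadha and Hadhb) and 2 lower (Acsl1 and Cpt1a), against 9.62% and 5.14% of all genes. The median was 0.83, against 0.02 for all genes. Consecutive steps share a library, so their values are not independent.

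**Figure D3:**
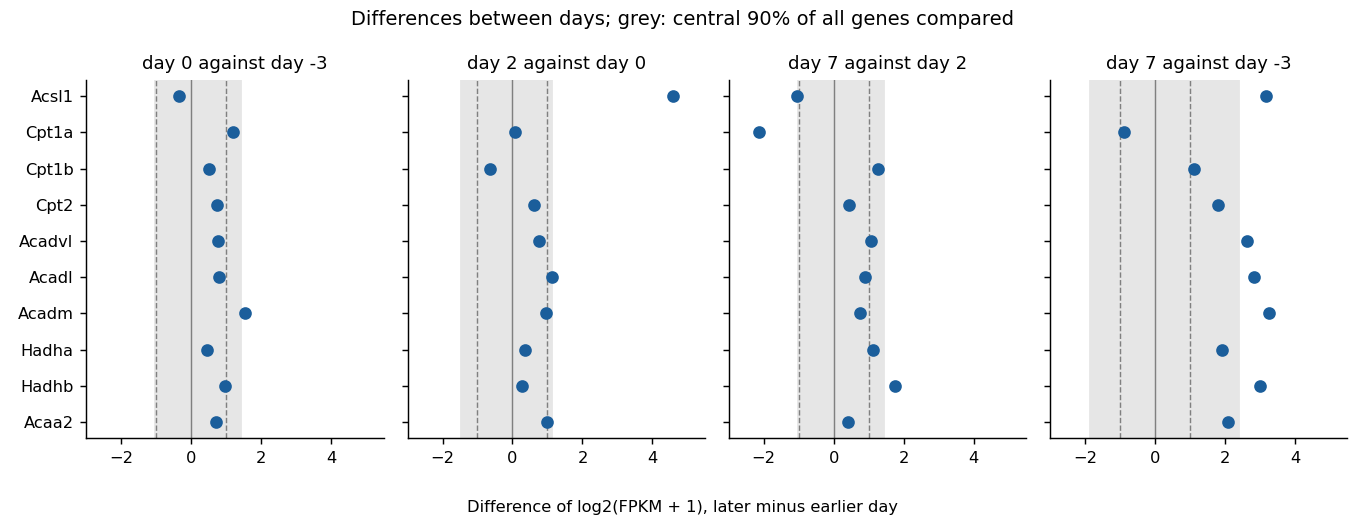
Difference of log2(FPKM + 1) for each member, later minus earlier day, in 4 comparisons. Grey bands hold the central 90% of all genes compared and dashed lines mark the 2-fold rule. In the first 2 steps most members sit between 0 and 1, with Acsl1 at 4.59 in day 2 against day 0 and Cpt1a at -2.14 in day 7 against day 2.

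The other 16 listed genes of mitochondrial beta-oxidation, all with culture values, were mostly higher late as well. Between day 7 and day -3, 13 were higher and 0 lower, against 20.3% and 14.7% of all genes, and 3 were within 2-fold. The median log2 difference was 1.79. Of the 16, 12 had a higher value at each later day, as did 13.5% of all genes. Hadh, the hydroxyacyl-CoA dehydrogenase for shorter chains, was at 28.3, 40.9, 114 and 140 FPKM at days -3, 0, 2 and 7. Echs1, the short-chain hydratase, was at 30.9, 46.5, 54.0 and 174 FPKM, its largest difference being the last step. Etfdh, which passes electrons from these dehydrogenases to ubiquinone, was at 18.0, 26.5, 44.9 and 64.6 FPKM. Etfa, a subunit of the flavoprotein that supplies it, was at 46.1, 59.2, 81.1 and 217 FPKM. Acot2, a mitochondrial thioesterase that releases free fatty acids from acyl-CoA, zigzagged at 2.15, 12.2, 4.53 and 29.4 FPKM.

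The 2 carboxylases that make malonyl-CoA had their largest difference at the last step, where Cpt1a was lower, and the decarboxylase that removes it had its largest at the step before. Acacb, the acetyl-CoA carboxylase associated with mitochondria, was at 0.174, 1.73, 1.52 and 45.6 FPKM at days -3, 0, 2 and 7, a log2 difference of 4.21 between day 7 and day 2. Acaca, the cytosolic carboxylase of fatty acid synthesis, was at 25.8, 20.4, 27.8 and 78.3 FPKM. Mlycd, malonyl-CoA decarboxylase, was at 4.57, 5.84, 17.5 and 17.1 FPKM, higher at day 2 than at day 0 by 1.44 and level afterwards.

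Peroxisomes shorten very long fatty acids by a parallel spiral. Of its 12 listed genes, 11 were higher at day 7 than at day -3 and 0 lower, against 20.3% and 14.7% of all genes. The median was 2.08. Ehhadh, the peroxisomal bifunctional enzyme, was at 0.180, 0.924, 0.614 and 4.43 FPKM at days -3, 0, 2 and 7. At the first step 6 of the 10 compared genes of this list were higher and 0 lower, against 11.3% and 5.43% of all genes, with a median of 1.13, and Acox3 had the largest difference at 1.43.

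The citric acid cycle, which takes up the acetyl-CoA, had another course at the first step. Of its 18 genes 5 had a higher value at day 0 than at day -3, and the median log2 difference was -0.20. Of the 10 members 9 had a higher value, with a median of 0.76, and of all 10602 genes compared 5680 did. Later the medians were closer, at 0.46 for the cycle and 0.69 for the members between day 2 and day 0, and 0.74 and 0.83 between day 7 and day 2. The difference between the 2 lists has no test with 1 library per time.

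**Figure D4:**
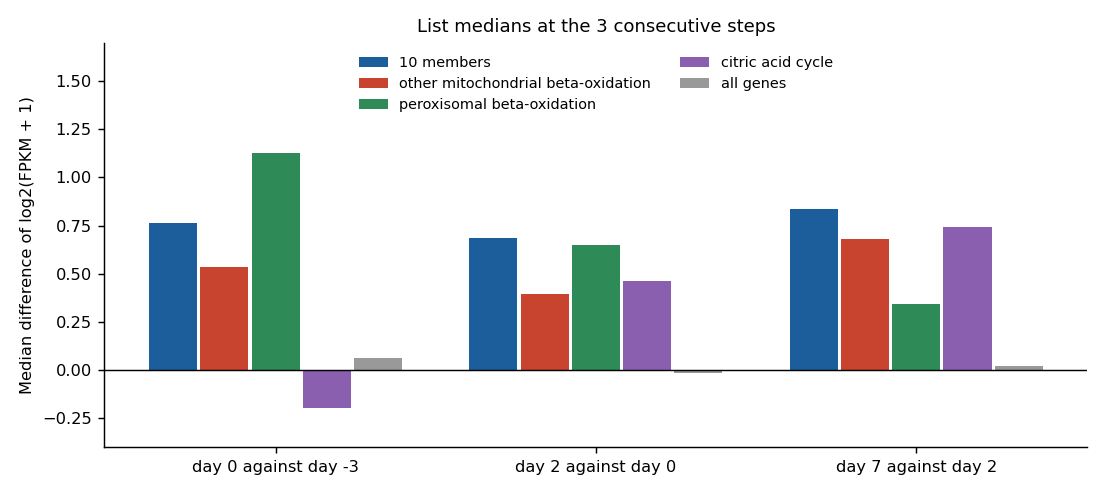
Median difference of log2(FPKM + 1) at the 3 consecutive steps for the 10 members, the other mitochondrial beta-oxidation genes, the peroxisomal genes, the citric acid cycle and all genes. At the first step the citric acid cycle median is -0.20 while that of the members is 0.76.

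Genes of the nuclear receptors and coactivators known to act on this pathway were followed at every time. Pparg, the adipogenic receptor whose alleles are floxed in these cells, was at 16.8, 7.46, 47.1 and 185 FPKM at days -3, 0, 2 and 7. Ppara, the receptor best known for fatty acid oxidation in liver and brown fat, was at 0.0639, 0.425, 0.290 and 6.52 FPKM. Ppargc1b, a coactivator of mitochondrial genes, was at 0.924, 0.761, 12.7 and 42.3 FPKM, and Esrra, an orphan receptor of energy metabolism, at 19.4, 13.3, 24.1 and 45.6 FPKM. Lpin1, a phosphatidate phosphatase that can also act as a coactivator, had the largest difference of the list, at 0.721, 5.44, 44.0 and 99.5 FPKM. Of the 11 regulators compared between day 7 and day -3, 7 were higher and 0 lower, against 20.3% and 14.7% of all genes. Ppargc1a has no culture value here and was at 15.2 RPKM in the tissue. Pdk4, a kinase that spares glucose by inhibiting pyruvate dehydrogenase, was at 8.61, 2.90, 26.0 and 64.0 FPKM.

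Outside all these lists, the 5 genes whose profile over the 4 culture libraries lay nearest to the median profile of the members were Lyrm5, Entpd5, Gpcpd1, Rmnd5a and Bckdhb. Nearness was the root mean square distance of log2(FPKM + 1) profiles, each less its own mean, over 7772 candidate genes that reached 10 FPKM. Lyrm5, the nearest at a distance of 0.05, was at 6.21, 12.4, 21.9 and 40.0 FPKM at days -3, 0, 2 and 7. Among the members themselves that distance was smallest for Acadvl, at 0.12, and largest for Cpt1a, at 1.45, followed by Acsl1 at 1.38.

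Relative to the median gene, all members but Cpt1a were higher in brown adipose tissue than in the day 7 culture. Because RPKM and FPKM come from different tables, the log2 ratio of tissue to day 7 was centred on its median over the 10461 genes compared, which was -1.23. By this measure 9 of 10 members were at least 2-fold higher in the tissue and 0 lower, against 17.3% and 16.9% of all genes. The members' median centred ratio was 3.22. By percentile rank among the shared genes fewer passed: 3 of 10 were higher by at least 10 percentage points and 0 lower. By that rank rule 27.4% of all genes were higher and 26.7% lower, so the member count is near the share of all genes. The 3 were Cpt1b by 76.1, Hadhb by 33.1 and Cpt2 by 17.0. Acadl was at 751 RPKM in tissue and 167 FPKM at day 7, and its centred ratio was 3.39. Acaa2 was at 648 RPKM in tissue and 104 FPKM at day 7, with a ratio of 3.86. Acadm was at 467 RPKM in tissue and 110 FPKM at day 7, with a ratio of 3.31. The dehydrogenases for long and medium chains and the thiolase were the members of highest level in the tissue.

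Acsl1 was at 402 RPKM in tissue and 106 FPKM at day 7, a centred ratio of 3.14. Acadvl was at 363 RPKM in tissue and 164 FPKM at day 7, a ratio of 2.38. Cpt2 was at 150 RPKM in tissue and 39.7 FPKM at day 7, a ratio of 3.12. These 3 therefore lay above the median gene by more than 2-fold, and Acadvl by less than the other two.

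Hadha was at 315 RPKM in tissue and 229 FPKM at day 7, and Hadhb at 117 RPKM in tissue and 22.4 FPKM at day 7. The centred ratios were 1.69 and 3.56. The excess of Hadha over Hadhb was 2.70-fold in the tissue and 10.2-fold at day 7. These ratios come from tables of different features, and the limit on the culture values of Hadhb applies to the second and to the centred ratio.

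The isoforms of CPT1 parted most. Cpt1b was at 172 RPKM in tissue and 5.48 FPKM at day 7, with a centred ratio of 5.97, the largest of the members. Cpt1a was at 2.96 RPKM in tissue and 8.01 FPKM at day 7, with a ratio of 0.04, the smallest. Cpt1b made up 98.3% of the summed Cpt1a and Cpt1b level in the tissue and 40.6% at day 7. These shares come from tables of different features, and the culture level of Cpt1b is low. The tissue values stand for about 923 reads per kb of Cpt1b and 15.8 reads per kb of Cpt1a. Chkb, which encodes a choline kinase and lies next to Cpt1b, was at 35.2 RPKM in the tissue.

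Skeletal muscle, which also uses CPT1B, was present in the tissue library by its markers. All 15 muscle markers were at 1 RPKM or more and summed to 1984 RPKM, with Acta1 at 534, Ckm at 237 and Myh4 at 155 RPKM. In culture 2 of the 15 had values, and these summed to between 1.43 and 7.08 FPKM. At day 7, where Cpt1b was at its culture maximum, they summed to 2.13 FPKM. The endothelial markers summed to 156 RPKM and the blood markers to 455 RPKM in the tissue. The part of muscle RNA in the tissue values of Cpt1b and of the other members was not tested.

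**Figure D5:**
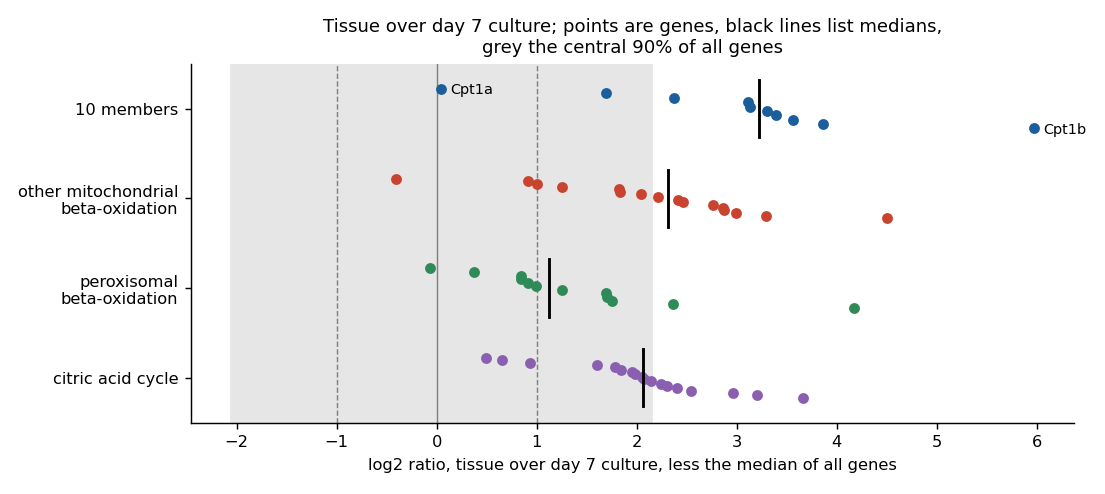
Centred log2 ratio of tissue to day 7 culture for the 10 members and 3 related lists, with 1 point per gene, black lines at list medians and a grey band for the central 90% of all genes. The members' median is 3.22, with Cpt1a at 0.04 and Cpt1b at 5.97.

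Other genes of the route were also high in the tissue. Of the 16 other mitochondrial genes 14 were higher in the tissue and 0 lower, against 17.3% and 16.9% of all genes. Their median centred ratio was 2.32. Slc25a20, the translocase that hardly differed over time in culture, was at 165 RPKM in tissue and 16.2 FPKM at day 7, a ratio of 4.50 and the largest of that list. Etfdh was at 273 RPKM in tissue and 64.6 FPKM at day 7, a ratio of 3.29. Ehhadh was at 40.6 RPKM in tissue and 4.43 FPKM at day 7, a ratio of 4.17. Of the 12 peroxisomal genes 6 were higher and 0 lower, with a median of 1.12. Of the 18 citric acid cycle genes 15 were higher and 0 lower, with a median of 2.06. Both lists stand against the same 17.3% and 16.9% of all genes.

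Of the 11 regulators compared, 2 were higher in the tissue and 1 lower, with a median centred ratio of 0.11, against 17.3% and 16.9% of all genes. Ppara was at 70.3 RPKM in tissue and 6.52 FPKM at day 7, a ratio of 4.47. Pparg was at 84.7 RPKM in tissue and 185 FPKM at day 7, a ratio of 0.11. Nrf1, a factor of nuclear-encoded mitochondrial genes, was the lower one, with a ratio of -2.37. It has 6 tissue transcripts, and only the highest, at 1.93 RPKM, was set against 34.6 FPKM for the gene at day 7. That choice can lower its ratio, and the ratio with transcripts summed is not reported here. Acacb was at 165 RPKM in tissue and 45.6 FPKM at day 7, and Mlycd at 29.7 RPKM in tissue and 17.1 FPKM at day 7, with ratios of 3.06 and 1.99. Of the 10 adipocyte markers 6 were higher and 0 lower, against the same 17.3% and 16.9% of all genes, with a median of 1.26.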

How the data were processed

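The study is a time course of mouse brown adipogenesis. Of its 83 samples, 5 RNA libraries were used and the other 78 were not analysed here. The authors deposited the culture values as FPKM, 1 per gene symbol. Every listed gene reaches at least 1.00 FPKM in a library, and no source used here names their annotation. For the tissue the authors deposited RPKM of 29082 RefSeq transcripts. The submitters' processing notes name CASAVA 1.8.2, TopHat2 2.0.10, Cufflinks 1.0.3 and SICER for the culture samples, CASAVA 1.8.2 for the tissue, and build mm9. RNA was poly(A)-selected, per the labels' protocols.

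Values were used as deposited. Tables were handled in pandas 2.3.3 and numpy 2.4.6 under Python 3.11.15, and plots drawn in matplotlib 3.10.9. Differences are of log2(value + 1), which understates differences of low genes. Tissue transcripts were matched to symbols by accession in a RefSeq table of assembly GRCm38.p6 (97.8% to 1 symbol), and each gene took its highest transcript. The worth of 1 tissue read was estimated from chemosensory receptor transcripts, 32 of 37 of which came out as whole reads within 0.01. This floor covers counting error only. The members, lists, motifs and alternatives were chosen with earlier results of these data known. The genes named were the members, fixed genes of the same route and its regulators, some of the listed genes with the largest differences past the rule, and the 5 nearest profiles. Values of the other genes that this rule admits are not printed, to keep to the members. Chkb was chosen after its value was seen. Values of 1 of the fixed genes are not reported here.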

Additional observations from a re-analysis of the deposited data

How the results depend on the processing

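Of the 99 alternative values of member counts, member medians and the Cpt1b share, 95 stayed close to the reported value: counts within 1.5 times, medians in the same direction and on the same side of the rule. Among these, members higher came to 3 in place of 2 between day 0 and day -3 (pseudocount 0.1) and between day 2 and day 0 (3 alternatives), to 3 in place of 4 between day 7 and day 2 (3 alternatives), and to 8 in place of 9 between day 7 and day -3 (2 alternatives; 7 without Hadhb and Cpt1b). The other 4 values follow. Scaling to a common total of FPKM gave 4 members higher between day 0 and day -3 in place of 2, and 19.4% of all genes in place of 11.3%. Leaving out Hadhb and Cpt1b, an alternative chosen after seeing the data, gave 2 higher between day 7 and day 2 in place of 4. Both are among those 4, and among the 9 between day 7 and day -3, so these counts follow from leaving them out. Differences of percentile ranks, called at 10 percentage points, gave 3 members higher in the tissue in place of 9, with a median of 4.13 points. By that rule 27.4% of all genes were higher. Acsl1 was already at percentile 95.6 at day 7, where a gain of 10 points cannot occur. Of 293 alternative values of single members, 9 fell inside the rule, 6 passed it, and 0 that had been past it changed sign. Cpt1a in the tissue, inside the rule throughout, came to -0.02 with no minimum of the larger value and to -0.15 with transcripts summed. Acaa2 between day 2 and day 0 came to 1.02 with a pseudocount of 0.1, and Acadvl between day 7 and day 2 to 0.98 at a common total. Some of the 99 values could not differ from those reported. Dropping the minimum changes no culture step of the members, since all 10 lie above 1 FPKM in every culture library. Summing transcripts cannot change the Cpt1b share, since Cpt1a and Cpt1b each have 1 tissue transcript.

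Counts over all genes moved more. Higher genes ranged from 436 to 2109 for day 0 against day -3 (1201 as reported), from 383 to 845 for day 2 against day 0 (662), from 530 to 1321 for day 7 against day 2 (1026) and from 1243 to 2858 for day 7 against day -3 (2196). Lower genes ranged from 357 to 701 (576), 532 to 1506 (1146), 280 to 829 (548) and 1035 to 1805 (1597) in the same order. For tissue against day 7 they ranged from 990 to 2862 higher (1812) and from 1220 to 2790 lower (1773). No paired analysis was possible because each group holds 1 library. Culture depth is unknown, and Cpt1b and Hadhb had the lowest levels of the members at days -3, 0 and 2.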

Other observations

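Of the 8 other acyl-CoA synthetases listed, 6 could be compared between day 2 and day 0, where Acsl1 differed by 4.59. Of these 6, 0 were higher and 0 lower, against 6.18% and 10.7% of all genes. With 6 genes such counts are near those shares. Acsl6 had no culture value, and Acss1 was under 1 FPKM at both days. Acsl4, which prefers arachidonate and was picked after its values were seen, had 17.8, 17.4, 13.6 and 29.2 FPKM at days -3, 0, 2 and 7. Acsl5 had 34.1, 20.9, 18.2 and 17.2 FPKM, so that Acsl1 lay below Acsl5 at day 0 and above it at day 2. In the tissue Acsl5 was at 122 RPKM, against 17.2 FPKM at day 7, a centred log2 ratio of 3.98.

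The synthetases for acetate were higher late. Acss2, the cytosolic enzyme, had 1.87, 7.06, 9.72 and 32.3 FPKM at days -3, 0, 2 and 7. Acss1, the mitochondrial enzyme, was under 1 FPKM before day 7 and at 1.6 FPKM then. In the tissue Acss1 was at 32.2 RPKM, and its centred ratio to day 7 of 4.91 was the largest of its list.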
